A study of Mus musculus with 6 samples.

Results

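The IL-1 family cytokines Il1a, Il1b and Il18, their antagonists Il1rn and Il18bp, and the inflammasome genes Casp1, Casp4, Nlrp3, Pycard and Gsdmd were followed in sorted mouse microglia, the resident macrophages of the brain. These 10 genes were chosen by name, as the members of this pathway, from the 49585 genes counted, and all 10 passed the expression filter that left 11041 tested genes. The samples were 3 libraries from wild-type male mice (WT) and 3 from male mice labelled IRF8KO, all aged 3 months; IRF8KO stands for a knockout of the transcription factor IRF8. The labels give neither the mouse strain nor how Irf8 was deleted or in which cells, and they give no treatment. Microglia were isolated brain by brain without enzymes and sorted by flow cytometry. The labels name no animal for a library, so p-values measure only the spread between these libraries.

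IL-1 alpha and IL-1 beta signal through the same receptor, whose antagonist, the product of Il1rn, occupies it without signalling. IL-1 beta and IL-18 are made as inactive precursors that caspase-1 cuts within an inflammasome, a complex of a sensor such as NLRP3 and the adaptor ASC (the product of Pycard). Gasdermin D, cut by caspase-1 or by the product of Casp4 (caspase-11 of the mouse), then forms pores through which the cytokines leave the cell. Microglia are a main source of IL-1 in the brain, and counts of transcripts say nothing of precursor cleavage or release.

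Of the 5 cytokine and antagonist genes 4 passed the test, whereas Il18 and the 5 inflammasome genes did not, which does not show that these are unchanged. Il1b, Il1rn and Il18bp rose in IRF8KO and Il1a fell, 4 of 10 genes called by the quasi-likelihood F test of edgeR at an adjusted p under 0.05 (Benjamini-Hochberg over all tested genes, written BH), beside 19.1% of all tested genes called. In one direction, 3 of 10 were higher, against 9.64% of all tested genes, and 1 of 10 was lower, against 9.46%. The median log2 fold change of the 10 genes was −0.58, and that of all tested genes −0.11. The groups did not overlap for 6 of the 10 genes, the 4 called ones with Pycard and Gsdmd, where 37.9% of all tested genes had groups that did not overlap. Levels are given as CPM, counts scaled to a common library size after correction by the trimmed mean of M-values (TMM), which can be compared between libraries for 1 gene. In bulk samples a change in the number of cells that make a transcript and a change in the amount per cell cannot be told apart.

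**Figure D1:**
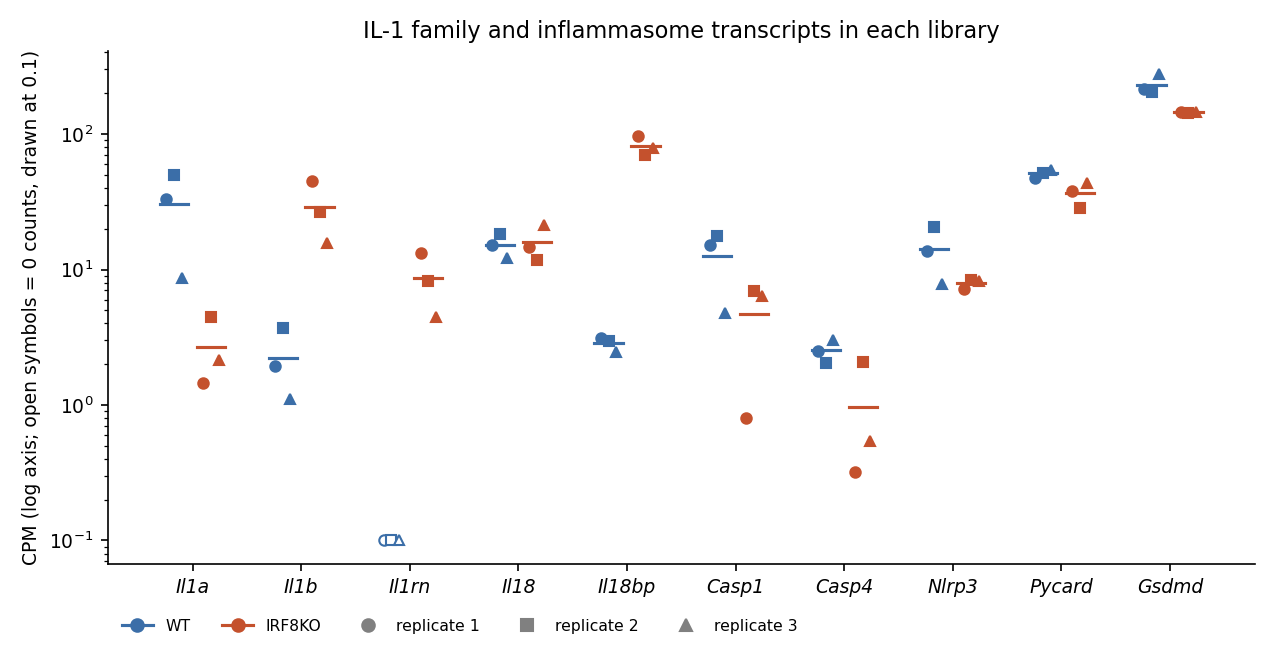
Level of each gene in each library in CPM on a log axis, WT in blue and IRF8KO in red, with the shape giving the replicate and the bar the mean of 3. Il1b, Il1rn and Il18bp are higher in all 3 IRF8KO libraries, Il1a is lower in all 3, and Il1rn had 0 counts in every WT library.

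Depth and library make-up bear on these values. Gene counts per library lay between 3658917 and 11098363, Apoe alone took 25.5% to 33.7% of them in IRF8KO and at most 0.324% in WT, and scaling by library size alone moved the median log2 fold change of all genes to −0.61. The targeted gene Irf8 was counted in every library, at 793, 849 and 1400 CPM in WT and 741, 648 and 848 CPM in the libraries labelled IRF8KO, with a log2 fold change of −0.44 (SE 0.33) that was not called (edgeR, BH-adjusted p = 0.368). Whether a part of the transcript is missing cannot be read from gene counts, so every direction given here rests on the labels. Microglial markers were present in both groups, with 4 of 9 lower in IRF8KO and Sall1 at 0 counts there, while 9 of 9 tested markers of border-associated macrophages were higher. The summed level of that macrophage list was 608 to 833 CPM in WT and 3821 to 4985 CPM in IRF8KO, with Lyve1 at 0 in all libraries and Cd163, F13a1 and Cd38 at 0 in WT. Cd163, F13a1 and Cd38 could pass the filter only through IRF8KO, as could Ms4a7 (6, 9 and 7 counts in WT) and Clec12a (2, 6 and 10). For these genes a higher call was largely set by the filter, which left Lyve1 untested. Immediate early genes, which can rise when cells are handled and of which 10 of 12 tested were lower in IRF8KO, summed to 6058 and 11804 CPM in WT replicates 1 and 2 but 849 CPM in WT replicate 3, beside 814 to 1096 CPM in IRF8KO. Neutrophil granule transcripts (S100a8, S100a9, Ngp, Camp and Ltf) summed to 350 CPM in IRF8KO replicate 2 and to at most 0.801 CPM in each other library. They are 5 of 11 neutrophil markers, chosen after their values were seen; the whole list summed to 649 to 998 CPM in WT and 869 to 1366 CPM in IRF8KO, most of it Csf3r, which was not called. Of the other markers, Cxcr2 was called higher, with 0 counts in WT and 10, 46 and 16 in the IRF8KO replicates, Mmp9 had 19, 11 and 0 counts there, and Mmp8 was at 0 everywhere. Astrocyte markers were higher in 3 of 3 tested genes, at sums of 2.83 to 11.6 CPM in WT and 22.3 to 44.2 CPM in IRF8KO, and neuron markers in 2 of 3, at 0.353 to 7.84 and 18.9 to 24.7 CPM. The tested neuron markers Rbfox3 (1, 4 and 18 counts in WT), Syt1 (0, 0 and 7) and Slc17a7 (3, 1 and 6) could pass the filter only through IRF8KO. The astrocyte marker Slc1a2, with 1 count in each WT library, was the same. Higher calls of these genes were therefore largely set by the filter. Oligodendrocyte markers were lower in 1 of 4 tested genes (Cnp), at sums of 282 to 691 CPM in WT and 469 to 677 CPM in IRF8KO, and the 1 endothelial marker tested, Pecam1, was lower, with list sums of 18.6 to 30.1 and 2.88 to 9.85 CPM. Of red blood cell markers 0 of 5 tested were called, with sums of 0, 0 and 57.3 CPM in WT replicates 1 to 3. In the IRF8KO replicates these sums were 53.6, 96.2 and 436 CPM. WT replicate 3 also stood apart in base composition: across genes, deviations from the group mean correlated with GC content at 0.64 there and at −0.54 and −0.52 in WT replicates 1 and 2. The IRF8KO replicates also differed, at 0.38, −0.45 and 0.080.

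The start regions of the 4 called genes are shown because these are the transcripts that changed. Each is the 300-base window of RefSeq (GRCm38.p6) from 250 bases before to 50 bases after a transcript start, read 5′ to 3′ on the gene's strand. The windows are chr2:129309923-129310222 for Il1a, chr2:129371090-129371389 for Il1b and chr7:102018183-102018482 for Il18bp, all on the minus strand, and chr2:24336610-24336909 on the plus strand for Il1rn, the first of 3 starts listed for that gene. Capitals mark the letters TATAAA, the TATA box that positions the start of transcription.
Il1a: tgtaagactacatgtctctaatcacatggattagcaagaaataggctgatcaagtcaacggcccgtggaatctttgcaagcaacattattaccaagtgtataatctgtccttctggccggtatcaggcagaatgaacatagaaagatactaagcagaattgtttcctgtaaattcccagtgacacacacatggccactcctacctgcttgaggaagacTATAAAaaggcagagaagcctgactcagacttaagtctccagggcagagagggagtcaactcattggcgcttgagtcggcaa
Il1b: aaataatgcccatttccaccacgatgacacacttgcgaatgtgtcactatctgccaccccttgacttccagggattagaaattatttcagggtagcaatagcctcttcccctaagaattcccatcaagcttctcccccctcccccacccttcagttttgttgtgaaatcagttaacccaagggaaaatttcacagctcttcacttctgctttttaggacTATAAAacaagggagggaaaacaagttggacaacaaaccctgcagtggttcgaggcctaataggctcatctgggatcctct
Il1rn: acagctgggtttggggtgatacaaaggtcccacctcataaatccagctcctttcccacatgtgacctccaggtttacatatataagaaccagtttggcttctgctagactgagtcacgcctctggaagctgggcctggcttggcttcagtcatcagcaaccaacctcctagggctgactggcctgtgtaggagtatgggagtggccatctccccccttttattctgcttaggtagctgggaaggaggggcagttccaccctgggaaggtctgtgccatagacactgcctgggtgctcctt
Il18bp: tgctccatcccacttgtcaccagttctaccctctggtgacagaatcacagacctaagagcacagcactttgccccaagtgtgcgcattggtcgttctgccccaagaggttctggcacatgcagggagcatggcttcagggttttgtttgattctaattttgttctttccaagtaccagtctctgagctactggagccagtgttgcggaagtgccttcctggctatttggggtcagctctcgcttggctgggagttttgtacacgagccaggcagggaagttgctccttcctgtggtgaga
In Il1a and Il1b, TATAAA lay 32 and 31 bases before the start, and the 2 windows shown for Il1rn and Il18bp held none. Over both strands, TATAAA was found in 4 of the 13 windows listed for 9 of the 10 genes, one each of Il1a, Il1b, Il18 and Il1rn, and in 13.6% of all 32851 windows; in Il18 and in the third Il1rn window it lay on the reverse strand. The windows of one gene can overlap: 2 of Casp4 share 289 of their 300 bases and 2 of Il1rn share 220, so a match there can count more than once. The windows were also searched on both strands for motifs that IRF8 is known to bind with partners, an interferon-response type (GAAA, any 2 bases, GAAA) and a type shared with PU.1 (GGAA, any 2 bases, GAAA), which can overlap. Neither was found in any of the 13 windows, beside 3.44% and 2.72% of all windows; Gsdmd was not listed. The letters TTNNGNAA, of the type bound by C/EBP factors, were found in 10 of the 13 windows, among them those of Il1a, Il1b and Il18bp, against 40.7% of all windows. An NF-kB-type motif was found in 3 of the 13 windows, those of Casp4 and Nlrp3, against 4.51% of all windows. TATAAA, TTNNGNAA and the NF-kB type were chosen after the windows were seen.

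Il1a and Il1b are neighbours on chromosome 2, separated by 54.6 kb, and moved in opposite directions. Il1a, the gene of IL-1 alpha, which is active as a precursor and acts as an alarm signal of damaged cells, spans 129299610 to 129309972. It was at 33.4, 49.5 and 8.66 CPM in WT replicates 1 to 3, and at 1.44, 4.48 and 2.16 CPM in the IRF8KO replicates. Every WT library was above every IRF8KO library, although WT replicate 3 lay much closer to them than the other 2 did. The log2 fold change was −3.47 (SE 0.64, 11.1-fold lower; edgeR, BH-adjusted p = 0.0033). Across the alternative settings that tested Il1a it ranged from −4.04 to −2.55 and was called in all 17, with the smallest changes, −2.58 and −2.55, under an offset for GC content without and with a replicate block.

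Among the WT libraries Il1a was high where the immediate early genes were high and where the relation to GC content was negative (Il1a has 41.3% GC); the part of the immediate early genes in the difference was not tested. In WT replicate 3, whose immediate early sum lay within the IRF8KO range, Il1a was 3.22 times the IRF8KO mean. Without WT replicate 3 the log2 fold change was −3.83. The antisense gene Gm14023 covers 11.2% of the exonic length of Il1a, and the libraries carry no strand information. Gm14023 itself had 35, 161 and 6 counts in the WT libraries and 1, 9 and 1 in IRF8KO, so the counts of both genes fell together. Reads in their shared part count for neither gene, since reads of several genes go to a summary line.

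Il1b, the gene of the caspase-1 substrate IL-1 beta, spans 129364570 to 129371139. It had 10, 52 and 8 counts in WT and 279, 299 and 144 in IRF8KO, which is 1.94, 3.67 and 1.10 CPM against 44.7, 26.8 and 15.6 CPM. The lowest IRF8KO library was above the highest WT library, and IRF8KO replicate 1 was the highest. The log2 fold change was 3.63 (SE 0.56, 12.4-fold higher; edgeR, BH-adjusted p = 9.9e-04). It was 4.26 without WT replicate 2, the WT library with the most Il1b, and 3.04 when scaled by library size alone. Neutrophils also make Il1b. Without IRF8KO replicate 2, which held the neutrophil granule transcripts, the log2 fold change was 3.70 (edgeR, BH-adjusted p = 0.0029); Cxcr2 was counted in all 3 IRF8KO libraries. That replicate was also the one with the monocyte markers Chil3 (386 counts) and Ly6c2 (31 counts), both at 0 elsewhere. Of dendritic cell markers Zbtb46 was higher in IRF8KO (4.61 ± 1.23 against 25.7 ± 4.15 CPM) with Clec9a, Cd209a and Ccr7 at 0, and of lymphocyte markers Cd4 was higher, from 0 to 26, 37 and 41 counts, with Cd3e and Cd3g at 0. The part of neutrophils or of these other cells in the rise was not tested.

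Il1rn, the gene of the IL-1 receptor antagonist, lies on the same chromosome at 24336853 to 24351494. It had 0 counts in all 3 WT libraries and 82, 92 and 41 counts in the IRF8KO replicates, or 13.1, 8.24 and 4.44 CPM. Set against a floor of 3 counts over the WT group, this is at least 71.5-fold higher (edgeR, BH-adjusted p = 6.7e-04). The floor covers counting error only, and without WT replicate 2, the deepest WT library, the limit was at least 33.4-fold. Without IRF8KO replicate 2 the edgeR BH-adjusted p was 0.0024, and it was at most 0.0054 without any 1 library. Counts over the whole gene do not separate the secreted form of the antagonist from the forms kept inside the cell.

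Within the IRF8KO libraries the proportion of Il1b to Il1rn varied little while both levels varied by more. The highest library was 2.87 times the lowest for Il1b and 2.96 times for Il1rn, in the same order of libraries. The ratio of Il1b to Il1rn counts was 3.40, 3.25 and 3.51 in IRF8KO replicates 1, 2 and 3. In WT, 70 Il1b counts stood beside 0 Il1rn counts, a ratio of at least 23.3 with Il1rn at the floor of 3 counts over the group. Against the summed IRF8KO counts of 722 and 215, that ratio was at least 6.95-fold lower in IRF8KO. This limit rests on WT replicate 2, which held 52 of the 70 counts: without it the WT ratio was at least 6.0 and the difference at least 1.79-fold. With 0.5 added to each count, the difference in mean log2 ratio was −3.31, and −2.49 without that library. WT replicates 1 and 3 held 10 and 8 Il1b counts. The exact permutation test on the log2 ratios, where the WT values depend on the 0.5 added to each count, gave p = 0.10, two-sided, the smallest that 3 against 3 libraries allow, and it was the same for 3 of the 4 ratios compared. After Benjamini-Hochberg adjustment over the 4 ratios these p-values were 0.133.

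**Figure D2:**
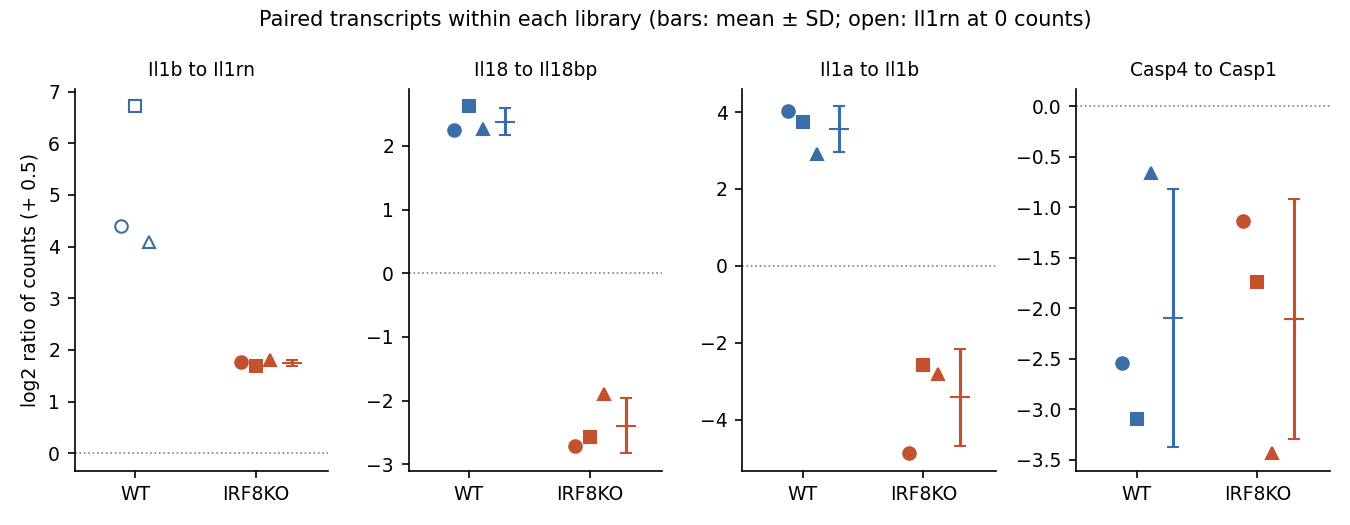
Log2 ratio of the counts of 2 genes within each library (0.5 added to each count), with WT in blue and IRF8KO in red, the shape giving the replicate and bars the mean and SD of 3. Il1b to Il1rn, Il18 to Il18bp and Il1a to Il1b are lower in every IRF8KO library, whereas Casp4 to Casp1 overlaps; open symbols mark WT libraries with 0 Il1rn counts, whose ratios depend on the added 0.5.

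The balance of the 2 forms of IL-1 turned over. Il1a outnumbered Il1b in each WT library, with ratios, after adding 0.5 to each count, of 16.4, 13.4 and 7.47. Il1b outnumbered Il1a in each IRF8KO library, where the ratios were 0.034, 0.169 and 0.142. The mean log2 ratio was 3.56 ± 0.59 in WT and −3.42 ± 1.27 in IRF8KO (SD, n = 3; exact permutation p = 0.10). The difference of −6.98 on the log2 scale was larger than the spread within either group, and it was −6.25 without IRF8KO replicate 1.

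Of the cytokine IL-18 and its antagonist, the antagonist's gene was called and the cytokine's was not. Il18 (chromosome 9, 50554827 to 50581840) was at 15.1, 18.4 and 12.1 CPM in WT and 14.7, 11.8 and 21.3 CPM in IRF8KO, and the groups overlapped. Its log2 fold change was 0.06 (SE 0.38), with a 95% interval from −0.77 to 0.90, and it was not called (edgeR, BH-adjusted p = 0.928). The sign turned in 6 of 18 alternative settings, and none called it; the highest value, 0.84, came with the GC offset (edgeR, BH-adjusted p = 0.162).

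Il18bp encodes a secreted protein that binds mature IL-18 and keeps it from its receptor. The gene (chromosome 7, 102014885 to 102018690) was at 3.11, 2.97 and 2.48 CPM in WT and 96.9, 70.4 and 79.5 CPM in IRF8KO. These were the tightest groups among the 4 called genes, with the highest library 1.25 times the lowest in WT and 1.38 times in IRF8KO. The log2 fold change was 4.85 (SE 0.33, 28.7-fold higher; edgeR, BH-adjusted p = 3.4e-06), and it lay between 4.72 and 4.95 without any 1 library. With the first and second strand columns it was 4.17 and 4.06. The exons of Numa1, on the other strand, cover 2.64% of those of Il18bp, and Numa1 was at 88.2 to 116 CPM in WT and 67.1 to 99.6 CPM in IRF8KO.

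With 0.5 added to each count, there were per Il18bp count 4.76, 6.15 and 4.78 Il18 counts in the WT libraries and 0.153, 0.168 and 0.269 in IRF8KO. The log2 ratio went from 2.38 ± 0.21 to −2.39 ± 0.43 (SD, n = 3, exact permutation p = 0.10), so the counts of the antagonist passed those of its cytokine in every IRF8KO library. These counts are not divided by length, and the exons hold 3026 bases for Il18bp and 1031 for Il18. Per kb, Il18bp was at 32.0, 23.3 and 26.3 CPM in the IRF8KO replicates and Il18 at 14.3, 11.5 and 20.7 CPM. Il1b, Il1rn and Il18bp rose alongside the 9 tested border-associated macrophage markers, each higher in every IRF8KO library than in any WT library. Among these, Il1rn, Cd163, F13a1 and Cd38, at 0 counts in WT, could pass the filter only through IRF8KO, which fixed their direction. The part of those markers in the rise was not tested.

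**Figure D3:**
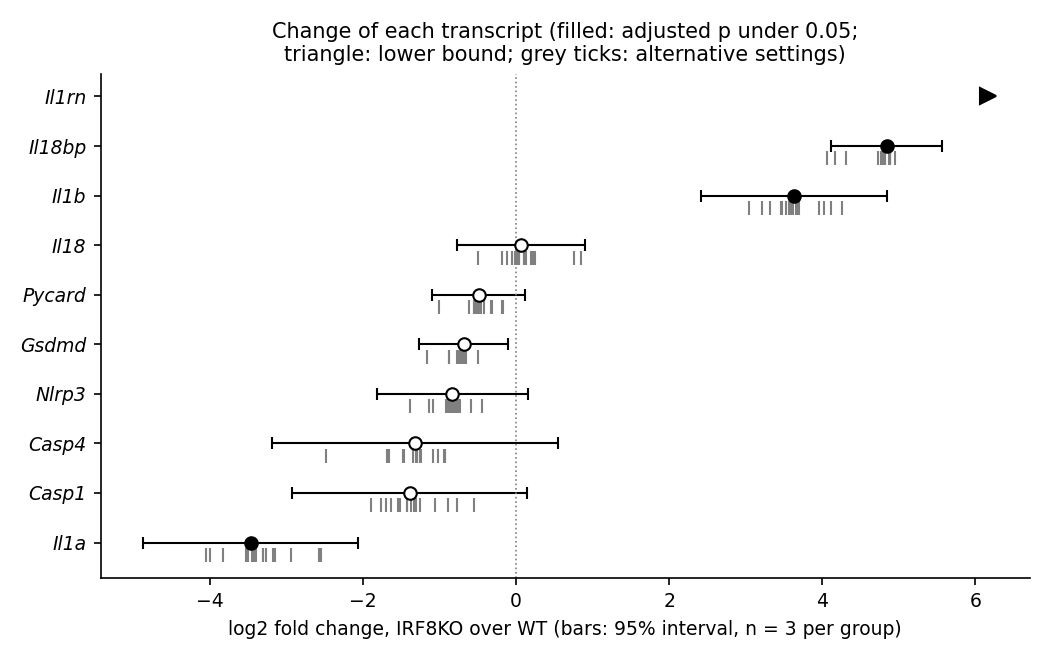
Log2 fold change of each gene, IRF8KO over WT, with the 95% interval from edgeR (3 libraries a group); filled circles passed an adjusted p of 0.05, the triangle is the lower bound for Il1rn, and grey ticks are the values under the alternative settings. Il1a sits at −3.47, Il1b at 3.63 and Il18bp at 4.85, and the intervals of Il18, Pycard, Nlrp3, Casp4 and Casp1 include 0.

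None of the 5 inflammasome genes was called, and all 5 had negative estimates. Nlrp3, the gene of the sensor (chromosome 11, 59541568 to 59566956), was at 13.8, 20.6 and 7.84 CPM in WT and 7.21, 8.33 and 8.22 CPM in IRF8KO. The IRF8KO libraries were close together, and WT replicate 3 lay among them while the other 2 WT libraries were higher. The log2 fold change was −0.83 (SE 0.45; 95% interval −1.82 to 0.16; edgeR, BH-adjusted p = 0.222).

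Casp1, the gene of the protease that cuts pro-IL-1 beta and pro-IL-18 (chromosome 9, 5298517 to 5307265), had the same pattern among the WT libraries. It was at 15.1, 17.7 and 4.81 CPM in WT and 0.801, 6.98 and 6.38 CPM in IRF8KO. WT replicate 3 again lay inside the IRF8KO range, and IRF8KO replicate 1 was the lowest of all libraries. The log2 fold change was −1.39 (SE 0.71; 95% interval −2.93 to 0.15; edgeR, BH-adjusted p = 0.190). The WT libraries with high Casp1 and Nlrp3 were those with high immediate early genes, WT replicates 1 and 2, which also differed from WT replicate 3 in the relation of levels to GC content. Casp1 has 41.1% GC and Nlrp3 50.9%, and with the GC offset the log2 fold changes were −0.55 and −0.91, neither called. The part of handling or of base composition was not tested further.

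**Figure D4:**
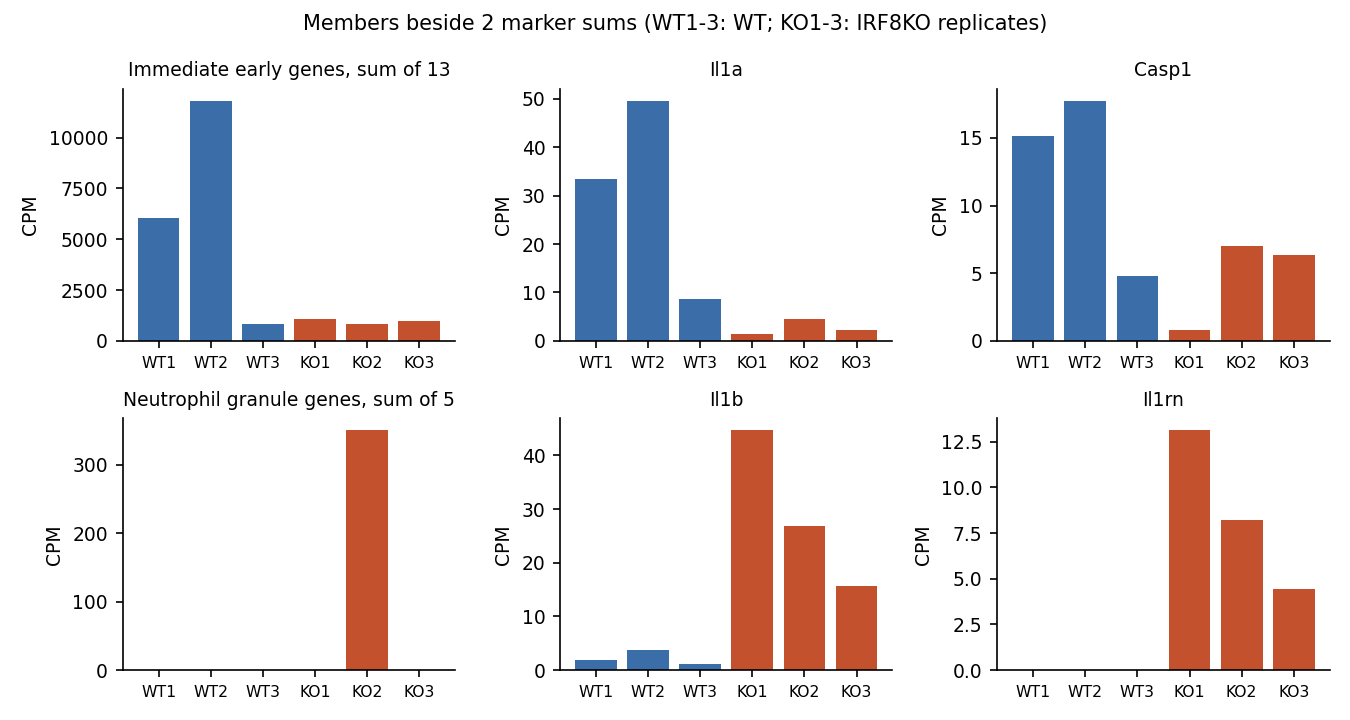
Level in CPM in each library (linear axes from 0) of 2 marker sums and 4 of the genes, with WT in blue and IRF8KO in red. The immediate early sum is high in WT replicates 1 and 2, where Il1a and Casp1 are also highest, and the neutrophil granule sum is high in IRF8KO replicate 2 alone, whereas Il1b and Il1rn are highest in IRF8KO replicate 1.

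Casp4, whose product senses bacterial lipopolysaccharide inside the cell, starts 1.56 kb beyond Casp1 (5308828 to 5336783) and was rare. Its counts were 13, 29 and 22 in WT and 2, 23 and 5 in IRF8KO, or 2.52, 2.05 and 3.03 against 0.320, 2.06 and 0.541 CPM. The groups overlapped only through IRF8KO replicate 2, and without that library the log2 fold change moved from −1.32 to −2.48. Neither value was called (edgeR, BH-adjusted p of 0.305 and 0.123). IRF8KO replicate 2 held the neutrophil granule transcripts and also had a correlation with GC content of −0.45, and Casp4 has 41.0% GC. The part of either in the Casp4 counts was not tested. The log2 ratio of Casp4 to Casp1 counts was −2.10 ± 1.28 in WT and −2.10 ± 1.19 in IRF8KO (SD, n = 3; exact permutation p = 1.0).

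Pycard and Gsdmd had lower levels in every IRF8KO library than in any WT library, and neither passed the test. Pycard, the gene of the adaptor ASC (chromosome 7, 127989708 to 127993867), was at 47.6, 51.8 and 54.6 CPM in WT and 38.1, 28.5 and 43.3 CPM in IRF8KO, with a log2 fold change of −0.49 (SE 0.28) that was not called (edgeR, BH-adjusted p = 0.243). Gsdmd, the gene of the pore-forming gasdermin D (chromosome 15, 75862327 to 75867408), was at 214, 204 and 277 CPM in WT and 146, 142 and 146 CPM in IRF8KO. The 3 IRF8KO values differed by no more than 1.03-fold, and the lowest WT value stood above them.

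The log2 fold change of Gsdmd was −0.68 (SE 0.27; 95% interval −1.26 to −0.10, unadjusted for the number of genes), and it missed the threshold (edgeR, BH-adjusted p = 0.093). It passed in 6 of 18 alternative settings. One of these was the fit that left out WT replicate 3, at −0.49 (edgeR, BH-adjusted p = 0.047). Relative to the all-gene median, the estimates of Pycard and Gsdmd are smaller by 0.11 on the log2 scale.

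Gsdmd was the most abundant of the 10 transcripts per unit of length in both groups. Divided by exonic length, it was at 97.5 ± 16.7 CPM per kb in WT and 60.8 ± 0.993 CPM per kb in IRF8KO (SD, n = 3), above every other gene in each library. In WT, Il1a (15.5 ± 10.4), Il18 (14.8 ± 3.07) and Pycard (13.5 ± 0.933) followed in CPM per kb with overlapping ranges. Casp1 and Nlrp3 came next at 8.39 ± 4.56 and 3.47 ± 1.57 CPM per kb, also overlapping, then Il1b, Il18bp and Casp4 at 1.17, 0.942 and 0.683 CPM per kb, and Il1rn at 0.

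In IRF8KO the order per unit of length differed. Il18bp moved from rank 8 to rank 2 at 27.2 ± 4.45 CPM per kb, and Il1a from rank 2 to rank 9 at 1.36 ± 0.803 CPM per kb. Il18 and Il1b overlapped at 15.5 ± 4.72 and 15.2 ± 7.70 CPM per kb, as did Il1b with Pycard at 9.64 ± 1.98. From Casp1 at 3.15 through Nlrp3 and Il1rn to Il1a at 1.36 CPM per kb, each range overlapped the next in that order, and Casp4 was last, below the range of Il1a, at 0.262 ± 0.255.

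Receptors of the family other than Il1rl2 were scarce, and 2 of the 4 tested receptors were lower in IRF8KO, where 9.46% of all tested genes were lower. Of 10 receptor genes, Il1r1, the signalling receptor of IL-1, had 1, 9 and 0 counts in WT and 9, 22 and 11 in IRF8KO and did not pass the filter, and Il18r1, the IL-18 receptor chain, had 2 counts over all libraries. Il1rl2, the receptor of the IL-36 cytokines, fell from 26.1 ± 8.19 to 5.26 ± 3.04 CPM (log2 fold change −2.29, SE 0.48; edgeR, BH-adjusted p = 0.0068). Without IRF8KO replicate 3 its adjusted p was 0.055. Il1rap, the co-receptor shared by several receptors of the family, was called at 2.64 ± 0.34 against 0.394 ± 0.124 CPM (adjusted p = 0.042, edgeR), and the call held in 1 of the 6 fits that left out a library and in 6 of all 16 alternative settings. It was also lost with limma-voom, with no filter, with the replicate block and with the GC offset, at adjusted p of 0.069, 0.088, 0.092 and 0.069. The median log2 fold change of the tested receptors was −1.05. Of 6 further ligand genes, 4 were matched, among them Il33, and all had 0 counts in every library.

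Of 6 other sensors tested, 2 were called lower and 0 higher (9.46% and 9.64% of all tested genes), and the median log2 fold change of the 6 was −1.83. Both called genes encode NAIP proteins, which recognise bacterial flagellin or secretion-system proteins together with NLRC4. Naip2 fell from 18.8 ± 6.08 to 3.57 ± 0.855 CPM, and Naip6 had 0 counts in IRF8KO, at least 37.1-fold lower (edgeR, BH-adjusted p of 0.0039 and 0.0022). The limit for Naip6 was 21.6-fold without IRF8KO replicate 2 and 24.2-fold without IRF8KO replicate 3. The Naip genes are close copies of each other, so the split of reads among them is uncertain. Nlrc4 had 0 counts in each WT library and 3, 2 and 3 counts in the IRF8KO replicates.

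Of 15 tested genes that act on inflammasome assembly, 2 were higher, 2 lower and 11 not called, with a median log2 fold change of 0.51. These counts are near the 9.64% higher and 9.46% lower of all tested genes, so they say nothing of the list as a whole. Pstpip1, whose product binds the sensor pyrin, rose from 1.75, 1.77 and 4.95 CPM in WT to 76.5, 79.9 and 87.3 CPM in IRF8KO, a log2 fold change of 4.85 (SE 0.44), or 5.56 without WT replicate 3 and 5.82 with the second strand column. The gene of pyrin itself, Mefv, had 0 counts in every library. Panx1, a channel for ATP release, rose by a log2 fold change of 1.59 (SE 0.30) from 17.1 ± 4.32 to 50.9 ± 2.39 CPM. Nek7, a kinase that NLRP3 needs for assembly, fell from 39.0, 33.6 and 14.4 CPM to 5.44, 6.27 and 3.79 CPM, a log2 fold change of −2.49 (SE 0.45), or −1.56 with the GC offset. Cgas, the sensor of DNA in the cytosol, fell from 6.76 ± 2.71 to 0.609 ± 0.295 CPM, with the call lost in the first strand column (−1.79). For the 4 called genes, Pstpip1, Panx1, Nek7 and Cgas, the adjusted p were 2.7e-05, 0.0038, 0.0030 and 0.0067 in that order (edgeR, BH). All 4 were called without any 1 library. Scaling by library size alone ended the call of Panx1, at 1.05 (adjusted p = 0.057, edgeR). Cd14, the most abundant of the list per kb in both groups, was not called, at 912 ± 226 and 1083 ± 277 CPM.

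**Figure D5:**
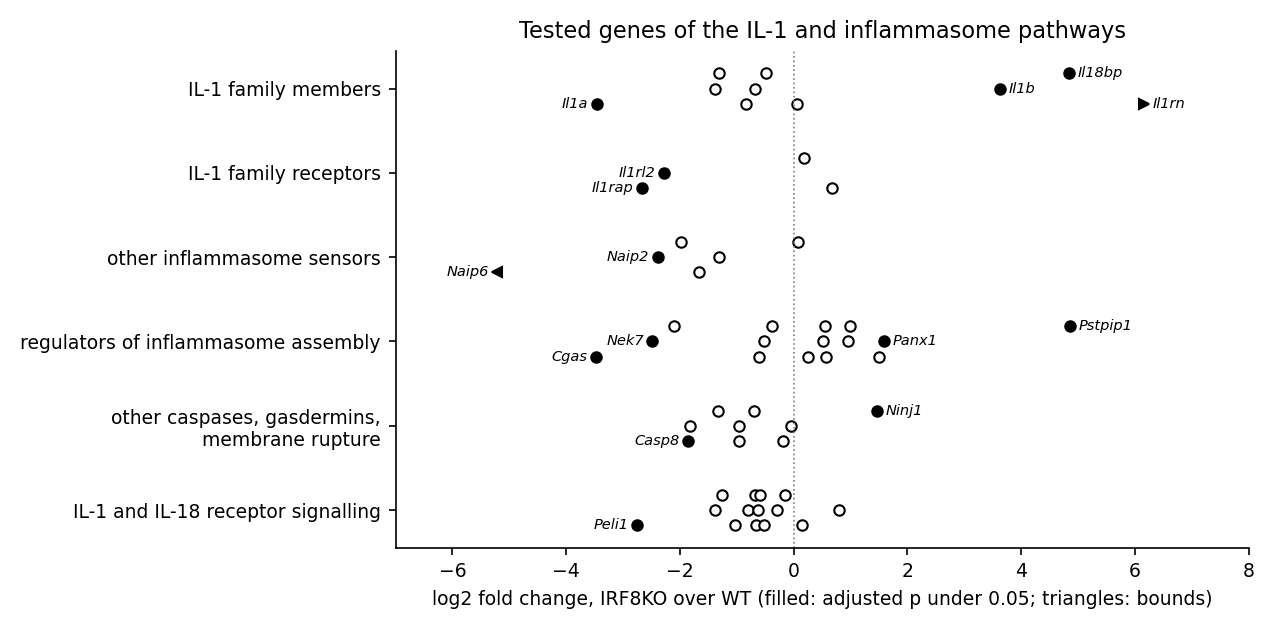
Log2 fold change, IRF8KO over WT, of each tested gene in the 6 pathway lists with any tested gene; filled symbols passed an adjusted p of 0.05 in edgeR and triangles are bounds for genes with 0 counts in a group. Called genes lie on both sides of 0 among the members, the assembly regulators and the caspase list, and on the lower side among receptors, sensors and receptor signalling.

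Among other caspases, gasdermins and genes of membrane rupture, 1 was called higher, 1 lower and 7 were not called, with a median log2 fold change of −0.96, and these shares too are near those of all tested genes (9.64% and 9.46%). Casp8, a caspase that can also process IL-1 beta, fell from 71.4, 65.5 and 47.7 CPM to 15.7, 19.8 and 15.4 CPM (log2 fold change −1.86, SE 0.30; edgeR, BH-adjusted p = 0.0013), and it was called in all 18 alternative settings. Ninj1, which ruptures the membrane of dying cells and was the most abundant of the list per kb in both groups, was at 157, 244 and 611 CPM in WT and 1080, 772 and 935 CPM in IRF8KO. Its log2 fold change of 1.46 had an adjusted p of 0.041 (edgeR), which held in 1 of the 6 fits that left out a library: it was 2.24 without WT replicate 3, the WT library nearest to IRF8KO, and its adjusted p was up to 0.146 in the others. With RLE size factors the adjusted p was 0.053.

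Of the signalling genes below the IL-1 and IL-18 receptors, Peli1 was the one called, with 1 of 14 tested genes called lower and 0 higher (9.46% and 9.64% of all tested genes), and a median log2 fold change of −0.65. Peli1, a ubiquitin ligase of this pathway, fell from 34.4 ± 15.0 to 5.01 ± 4.42 CPM (log2 fold change −2.76, SE 0.62; edgeR, BH-adjusted p = 0.0095). It was −3.77 without IRF8KO replicate 2 and −2.07 with the GC offset, and its adjusted p was 0.057 without IRF8KO replicate 1. Irak2, a kinase of the receptor complex with the highest CPM of the list averaged over both groups, was not called, at 169 ± 13.6 CPM in WT and 152 ± 33.1 CPM in IRF8KO. Myd88, the adaptor of these receptors, was not called either, at 108 to 173 CPM in WT and 125 to 168 CPM in IRF8KO.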

How the data were processed

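RNA of sorted microglia was copied with the SMART-Seq v4 kit and tagged with Nextera XT, per the labels' protocols; the protocol names no molecular identifiers, and the first strand column held 49.8% to 50.3% of the counts in both strand columns, as in libraries that keep no strand. The deposited files hold raw counts per gene in the layout of STAR's gene counts, 1 library each; the submitters' processing notes list STAR 2.5.2b, Picard 2.17.11, Subread, featureCounts and the build mm10, and trimming and annotation release are not given in the sources used here. The count that ignores strand was used, the 4 summary lines were left out, and 49326 of 49585 genes were matched to GENCODE M21 (GRCm38), the source of coordinates. The summary lines held 2.44% to 7.70% (no gene) and 8.20% to 10.8% (several genes) of uniquely mapped reads, and 4.33% to 5.85% (several places) of all reads.

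The test used edgeR 4.0.16 (R 4.3.3): default filter (minimum count 10), TMM scaling, the quasi-likelihood F test with genotype alone, Benjamini-Hochberg over all 11041 tested genes, called at an adjusted p under 0.05. Standard errors come from the F statistic. The procedure was tested on simulated data. Ratios of 2 genes had 0.5 added to each count and were compared with an exact permutation test. Alternatives were other scalings, DESeq2 1.42.0, limma-voom (limma 3.58.1), other filters, each strand column, a replicate block, each library left out and, added after seeing the data, an offset for GC content with and without the block. The members and lists were chosen with earlier results of these data known. All 10 members were to be named; from each pathway list, the called genes (at most 6) and the one with the highest mean CPM. No 2 files of a group were the same library sequenced again (chi-square per degree of freedom at least 8.57).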

Additional observations from a re-analysis of the deposited data

How the results depend on the processing

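Il1a, Il1b, Il1rn and Il18bp kept their direction and their call in every alternative that tested them. The filter of at least 10 counts in every library tested only 5 of the 10 genes, left out Il1a, Il1b and Il1rn, and gave 2 called members, Il18bp (1 higher) and Gsdmd at −0.70. Gsdmd was also called with upper quartile scaling (−0.72), library size alone (−1.16), the GC offset (−0.87), the GC offset with the replicate block (−0.88) and without WT replicate 3 (−0.49), which gave 2 members lower; leaving out each library, it lay between −0.77 and −0.49. With library size alone 3 members were lower, among them Pycard at −1.01, and all genes gave 652 higher and 1914 lower calls. Leaving out each library, calls over all genes ranged from 910 (without IRF8KO replicate 3) to 4003 (without WT replicate 3), with 524 to 2168 higher and 386 to 1835 lower, and called members from 4 to 5, of which 1 to 2 were lower. The log2 ratio of Il1b to Il1rn, −3.31, was −1.49 and −5.58 with 2 and 0.1 added to each count, since Il1rn is at 0 in WT, and −2.20 with the second strand column. That of Il18 to Il18bp, −4.77, was −4.05 and −4.15 with the first and second strand columns. That of Casp4 to Casp1, −0.01, turned to 0.15 with 2 added and 0.032 with the second strand column, and ranged from −0.51 to 0.71 without each library. The cause of these shifts was not tested.

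The replicate numbers shared by the groups were not taken to pair the libraries. Deviations of same-numbered libraries correlated at −0.26, 0.33 and 0.11 across genes. WT replicates 1 and 3 correlated more with IRF8KO replicates 2 (0.35) and 1 (0.32). These correlations cannot decide whether the numbers pair the libraries, since the libraries also differed in their relation to GC content. A replicate block gave 2353 called genes in place of 2109 and the same 4 called members. Low counts limit Casp4, with 2 to 29 counts a library.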
